A study of Mus musculus with 48 samples.

Results

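The genes described here are 35 genes of the p53 stress response and of the BCL2 cell death pathway. They were chosen by symbol, with earlier results of these data known, out of the 34183 genes in the deposited tables. All 35 were found. They comprise p53 itself (Trp53) with its inhibitors Mdm2 and Mdm4, 10 genes grouped as growth arrest and stress targets of p53, and 6 death-linked targets of p53. Whether each of the 10, such as Gadd45b and Gadd45g, is a target of p53 in these cells was not tested. The others are the pore-forming genes Bax and Bak1, 8 BH3-only genes, the survival genes Bcl2, Bcl2l1 and Mcl1, and 3 genes of the apoptosome and its inhibitor (Apaf1, Casp9 and Xiap). All 35 genes were measured by poly(A) RNA sequencing in 48 libraries of neuron-enriched primary cultures from the dorsal root ganglia of adult wildtype mice. These ganglia hold the cell bodies of sensory neurons. The cells were grown in Neurobasal-A with B27 and, except at time 0, were transfected right after isolation and taken at 42 h.

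There were 12 groups of 4 libraries. One was untransfected and taken at time 0. The siRNA groups at 42 h received siCONTROL or an ON-TARGETplus pool against Atf3, Atf4, Jun, Stat3, Klf6, Rest or Alyref, named below siAtf3, siAtf4 and so on. The mRNA groups at 42 h received GFP mRNA, Atf4 mRNA, or Atf4 mRNA together with Cebpg mRNA. Each target was addressed with 1 pool, so effects of a pool other than on its target cannot be told apart from loss of the target. The labels do not say whether libraries of a group came from separate animals or cultures, and the p-values therefore reflect library-to-library spread that may be technical.

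The p53 protein is a transcription factor that Mdm2 and Mdm4 hold in check and that DNA damage and other stress release. Its targets stop the cell cycle (Cdkn1a, which encodes p21), feed back on p53 (Mdm2), or push the cell towards death. In the BCL2 family, BH3-only proteins such as Puma (Bbc3) and Noxa (Pmaip1) bind the survival proteins and free Bax and Bak to open the outer mitochondrial membrane, after which cytochrome c, Apaf1 and caspase 9 form the apoptosome and Xiap restrains the caspases. Adult sensory neurons do not divide, and after axon injury most of them survive while they turn on stress genes.

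Promoter stretches of 7 of these genes are shown. Their genes changed in the comparisons below, and their windows hold letters that p53 or ATF/CREB factors are known to bind. The 7 are a choice and not all genes that meet both conditions. The windows run from 250 bases before to 50 bases after the start site and come from RefSeq on build GRCm38.p6, where 29 of the 35 genes were found. Trp53inp1, Zmat3, Perp, Tnfrsf10b, Pmaip1 and Bik had no window in the table used. Each stretch is written along its gene, with the match in capitals. The first 5 hold exact matches to the p53 half-site pattern of 10 bases, RRRCWWGYYY (R is A or G, W is A or T, Y is C or T). In Cdkn1a a pair of exact matches stands 12 bases apart. The 10 bases that directly follow the second match differ from the pattern only at their first base. They were not counted as a half-site and are left in lower case.

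Cdkn1a, chr17:29090891-29090952 on the plus strand: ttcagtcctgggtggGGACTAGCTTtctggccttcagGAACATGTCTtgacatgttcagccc

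Mdm2, chr10:117710920-117710959 on the minus strand: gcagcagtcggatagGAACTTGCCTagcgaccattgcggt

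Ccng1, chr11:40755447-40755486 on the minus strand: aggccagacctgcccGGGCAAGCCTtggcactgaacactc

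Bax, chr7:45467075-45467114 on the minus strand: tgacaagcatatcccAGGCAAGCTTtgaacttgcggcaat

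Gadd45a, chr6:67037423-67037462 on the minus strand: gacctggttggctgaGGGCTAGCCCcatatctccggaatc

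The other stretches hold the cAMP response element TGACGTCA, which ATF and CREB factors bind.

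Plk2, chr13:110394967-110395004 on the plus strand: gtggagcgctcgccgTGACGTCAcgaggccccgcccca

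Btg2, chr1:134079299-134079336 on the minus strand: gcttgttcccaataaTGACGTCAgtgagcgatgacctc

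Searched on both strands, a p53 half-site lay in 1 or more windows of 9 of the 29 genes and of 9.554% of the 27025 genes in the RefSeq table, where a gene can have several windows of this length. Of these 9, Aen, Trp53, Sesn1 and Bmf are not shown above. In control culture Aen and Trp53 rose, Sesn1 fell and Bmf did not pass. A pair of half-sites at most 13 bases apart lay in 1 of the 29 genes, Cdkn1a, and in 0.074% of all genes. TGACGTCA lay in 2 of the 29 genes and in 2.031% of all, and TGACG, which overlaps it, in 10 of the 29 and in 23.045% of all. The AP-1 element TGANTCA lay in 2 of the 29 (Fas and Mdm4) and in 8.973% of all. TGATGNAA, a form of the composite C/EBP and ATF element, lay in 2 of the 29 (Gadd45g and Hrk) and in 4.511% of all. The SRF element, the CArG box, lay in 0 of the 29 and in 1.806% of all. The motifs were chosen after expression values had been seen, and a match describes letters only.

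Library totals ranged from 1539198 to 6621566 expected counts. Each of the 7 knockdown targets was lower in every one of its libraries than in every siCONTROL library, at 16.8% to 38.9% of the control mean. Atf4 was at 8859 to 18240 CPM (counts scaled to library size, with TMM) with Atf4 mRNA and at 573 to 703 CPM with GFP mRNA, and in the libraries given both mRNAs Cebpg took 4.53% to 8.66% of all counts. All 14 sensory neuron markers were detected in each group, and markers of satellite glia, Schwann cells, fibroblasts and endothelium were detected beside them, whereas the T cell marker Cd3e was at 0 throughout. CPM values here are close to values per transcript length, so levels of different genes can be set side by side within a table.

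Over 42 h in control culture most of the listed genes rose. Of 34 tested, 20 were higher and 7 lower in siCONTROL than at time 0 (edgeR quasi-likelihood test, adjusted p under 0.05). Of all 13448 genes tested 57.9% passed, 28.7% higher and 29.2% lower, and the median log2 fold change was 0.79 over the 34 genes and 0.01 over all genes. Hrk was removed by the filter on low counts. The time 0 libraries were also the only untransfected ones, so an effect of transfection and one of time cannot be told apart.

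Cdkn1a, the cell cycle inhibitor p21, was at 66.2, 59.5, 65.1 and 55.8 CPM at time 0 and at 899.7, 819, 803 and 769 CPM in siCONTROL. The groups lay far apart, and Cdkn1a was the most abundant of the 35 genes in siCONTROL. The log2 fold change was 3.73 ± 0.082 (SE, n = 4 per group), a 13.3-fold rise with an adjusted p of 3.18e-10. Ranked by level among all genes, Cdkn1a stood between places 3251 and 3747 at time 0 and between places 127 and 153 in siCONTROL.

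Pmaip1, which encodes the BH3-only protein Noxa, was at 0.880, 3.06, 2.46 and 3.36 CPM at time 0 and at 40.7, 37.3, 30.4 and 35.2 CPM in siCONTROL, a log2 change of 3.86 ± 0.26 (adjusted p = 3.09e-07). Eda2r, a receptor of the TNF receptor family, was at 0.220, 0.657, 0.614 and 0 CPM and then at 3.86, 7.09, 9.67 and 13.1 CPM. Its log2 change of 4.38 ± 0.58 rests on very few counts at time 0. Hrk, the BH3-only protein Harakiri, was at 0, 0.219, 0.205 and 0.240 CPM and then at 2.38, 2.47, 2.04 and 2.76 CPM. These 3 death-linked genes started near 0, and in each the groups did not overlap.

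Trp53 and both of its inhibitors rose. Trp53 went from 26.6 ± 2.80 to 63.8 ± 3.57 CPM (SD, n = 4), a log2 change of 1.26 ± 0.10. Mdm2, the ubiquitin ligase that removes p53 and is itself a p53 target, rose by 2.40 ± 0.14, and its partner Mdm4 by 0.62 ± 0.14. Of the 10 genes grouped as growth arrest and stress targets, 4 rose and 2 fell. Beside Cdkn1a, Gadd45a, a DNA damage response gene, went from 70.8 ± 6.26 to 388 ± 40.0 CPM (log2 change 2.45 ± 0.096), Trp53inp1 rose by 1.67 ± 0.17, and Ccng1, which encodes cyclin G1, by 1.08 ± 0.093.

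The 2 arrest and stress targets that fell were Sesn1, an antioxidant sestrin, and Btg2, an antiproliferative gene. Sesn1 went from 26.6 ± 1.83 to 9.57 ± 0.626 CPM (log2 change -1.48 ± 0.13) and Btg2 from 62.7 ± 5.39 to 25.8 ± 3.46 CPM (-1.27 ± 0.12). Gadd45b, Gadd45g, Zmat3 and Plk2 did not pass, with log2 changes of 0.07, 0.15, 0.23 and 0.24. Zmat3 had groups that did not overlap and an adjusted p of 0.0501, and limma gave it an adjusted p of 0.0497.

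Of the 6 death-linked targets 5 rose. Phlda3, an inhibitor of Akt, went from 28.2 ± 5.33 to 152 ± 8.497 CPM, a log2 change of 2.43 ± 0.12. Beside Eda2r, the nuclease gene Aen rose by 0.96 ± 0.089, Perp, which encodes a membrane protein, by 1.10 ± 0.16, and the death receptor gene Tnfrsf10b by 1.16 ± 0.25. Fas, another death receptor, fell from 4.58 ± 1.27 to 1.80 ± 1.25 CPM, with groups that overlapped.

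Further along the death pathway the directions were mixed. Bax was at 73.7, 81.6, 73.5 and 73.8 CPM at time 0 and at 176, 187, 204 and 178 CPM in siCONTROL, a log2 change of 1.30 ± 0.076, and Bak1 rose by 0.85 ± 0.19. Among BH3-only genes Bbc3 rose by 0.91 ± 0.17 and Bik by 1.99 ± 0.42, whereas Bid fell by 0.37 ± 0.14 with overlapping groups. Bad, Bcl2l11 and Bmf did not pass, with log2 changes of 0.33, 0.74 and -0.26. For Bad, adjusted p was 0.0562 in edgeR and 0.0449 in DESeq2.

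On the survival side Bcl2 fell from 16.8 ± 2.21 to 6.44 ± 0.939 CPM (log2 change -1.38 ± 0.17). Bcl2l1, which encodes Bcl-xL, rose by 0.33 ± 0.10 and Mcl1 by 0.32 ± 0.11. Apaf1, the scaffold of the apoptosome, rose by 1.29 ± 0.23, while the caspase inhibitor Xiap went from 41.3 ± 6.11 to 22.0 ± 2.69 CPM (-0.92 ± 0.14) and Casp9 fell by 0.30 ± 0.10 on the log2 scale. The level of Bax divided by the sum of Bcl2, Bcl2l1 and Mcl1 was 0.436 to 0.575 in the time 0 libraries and 0.987 to 1.09 in siCONTROL, and the sum itself was 137 to 169 and 162 to 187 CPM. The mean ratio of the other 42 h groups lay between 0.938 (both mRNAs) and 1.10.

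The calls for Fas, Bid, Casp9, Mcl1 and Bcl2l1 were the ones of the 27 that some alternative ended. Leaving out 1 of 8 libraries ended them in 5, 5, 4, 4 and 2 cases, with adjusted p from 0.0523 to 0.109 and the same direction. Those libraries were time 0 replicates 1 and 2 and siCONTROL replicates 1, 3 and 4 for Fas, time 0 replicates 1, 3 and 4 and siCONTROL replicates 3 and 4 for Bid, time 0 replicates 2 and 3 and siCONTROL replicates 1 and 4 for Casp9, time 0 replicates 2 and 4 and siCONTROL replicates 2 and 3 for Mcl1, and time 0 replicates 2 and 4 for Bcl2l1.

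Cell type markers moved in the same comparison. Satellite glia markers summed to 4580 to 5660 CPM at time 0 and to 771 to 917 CPM in siCONTROL (7 of 10 lower, 2 higher), Schwann cell markers to 2060 to 2450 and 1430 to 1630 CPM (8 of 12 lower, 2 higher), and sensory neuron markers to 21800 to 24600 and 15300 to 19400 CPM (9 of 14 lower). Red cell markers summed to 173 to 217 and 4.41 to 11.9 CPM. Proliferation markers went from 75.3 to 83.4 up to 157 to 197 CPM, with all 7 tested of the 8 higher. Macrophage and immune markers summed to 14.1 to 22.0 and 27.6 to 46.7 CPM, with C1qa, C1qc, Ptprc and Cd3e at 0 in siCONTROL. Of the 10, 4 were tested, with 2 higher (Cd68 and Csf1r) and 2 lower (C1qa and C1qb). Endothelial and mural markers summed to 240.0 to 307 and 332 to 391 CPM (6 of 10 higher, 2 lower). Fibroblast markers summed to 269 to 489 and 136 to 283 CPM (of 7 tested, 3 higher and 2 lower). Their part in the changes of the 35 genes was not tested. In these bulk samples fewer cells of a type and less RNA per cell cannot be told apart.

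**Figure D1:**
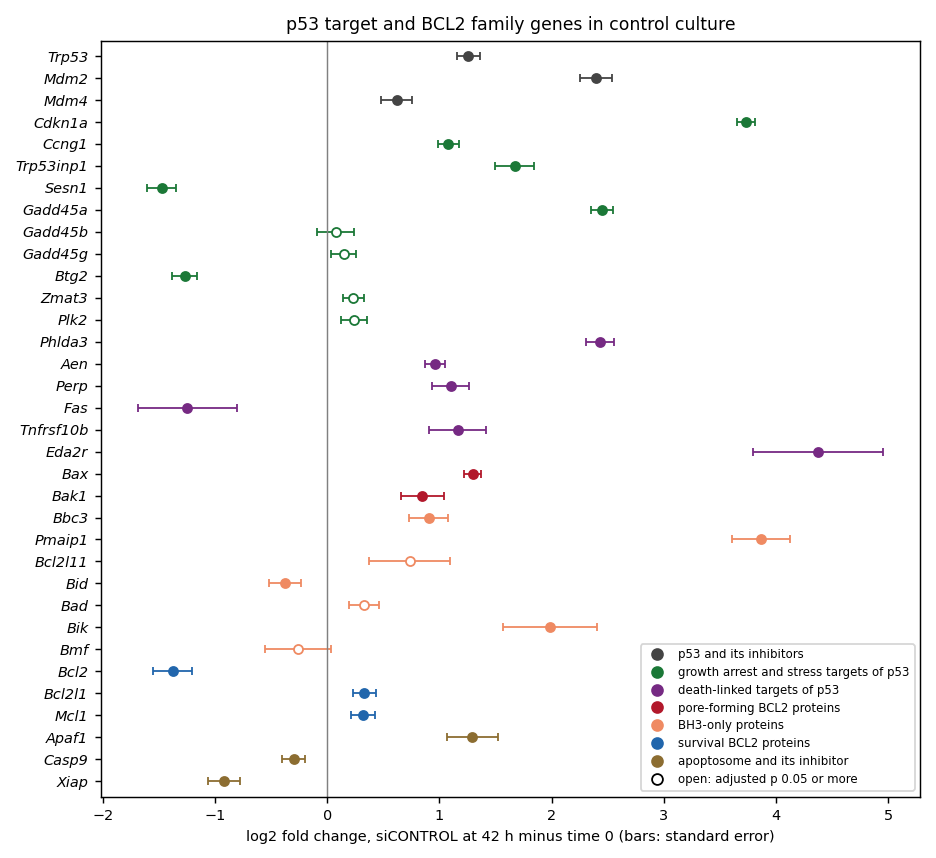
Log2 fold change of 34 genes in control culture, siCONTROL at 42 h minus time 0, with the standard error as a bar and n = 4 libraries per group (filled, adjusted p under 0.05; open, not past it; colour, role of the gene). Eda2r, Pmaip1 and Cdkn1a lie farthest to the right, and Sesn1, Bcl2, Btg2, Fas and Xiap lie left of 0.

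From this raised level the treatments moved part of the genes. Over 7 knockdowns and 2 mRNA treatments there were 37 calls, which fell on 17 of the 35 genes. The other 18 passed in none of the 9 comparisons. Over all genes tested, the share that passed ranged from 0.202% in siRest to 24.6% with both mRNAs, and it is given below for each treatment. The knockdowns share their 4 siCONTROL libraries, and the mRNA treatments share their 4 GFP libraries, so calls of a gene in several of them are not independent. Trp53 had log2 changes between -0.12 (Atf4 mRNA) and 0.10 (siAtf4), and Mdm2 between -0.23 (siAtf3) and 0.21 (both mRNAs), with no call. Fas was too low to be tested in the mRNA table.

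**Figure D2:**
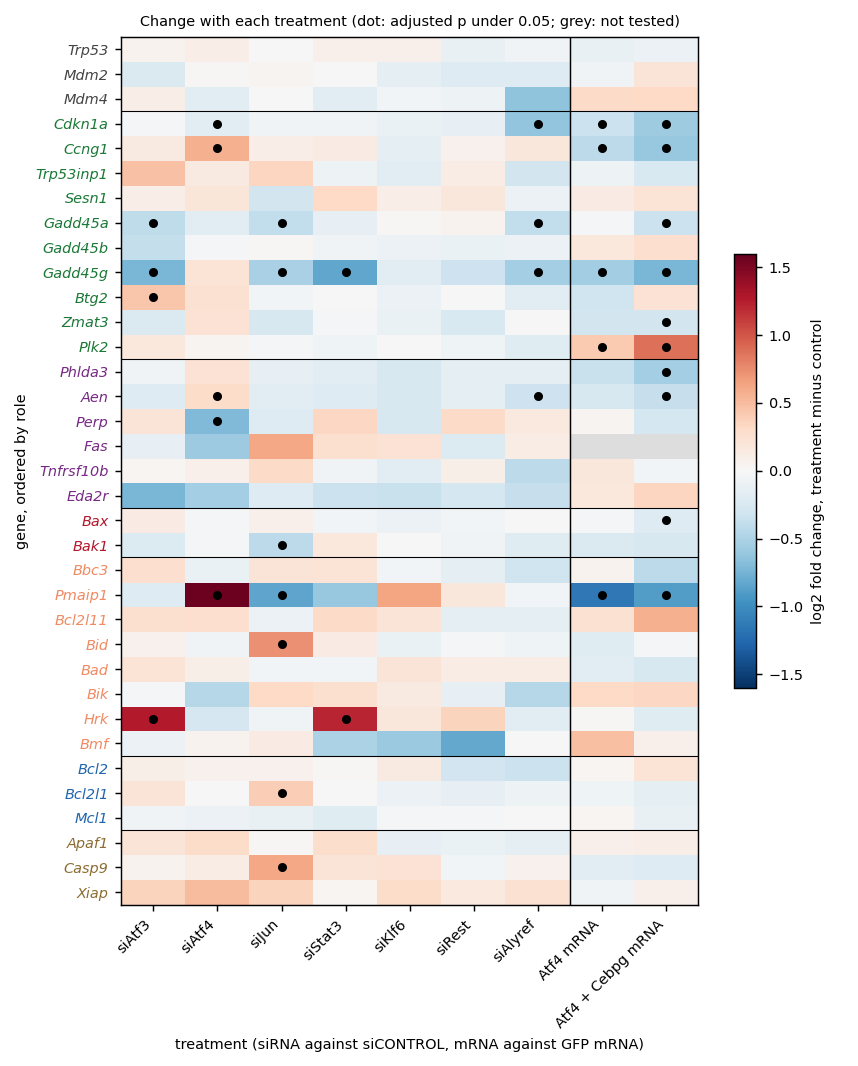
Log2 fold change of each gene (rows, by role) with each treatment against its own control (columns; siRNA against siCONTROL, mRNA against GFP mRNA), with a dot where the adjusted p was under 0.05 and grey where a gene was not tested. Gadd45g carries 6 dots, Pmaip1, Cdkn1a and Gadd45a carry 4 each, and Trp53 and Mdm2 carry none.

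Atf4, a transcription factor of the integrated stress response, was both knocked down and supplied. In siAtf4 5 of 35 genes passed, 3 higher and 2 lower, beside 6.91% of 14876 genes tested. With Atf4 mRNA 5 of 34 passed, 1 higher and 4 lower, beside 4.84% of 13857 genes. With Atf4 and Cebpg mRNA together (Cebpg encodes a C/EBP factor that can pair with Atf4) 10 of 34 passed, 1 higher and 9 lower, beside 24.6% of all genes, so that this share, 29.4%, was near the background.

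Pmaip1 was at 113, 112, 85.4 and 116 CPM in siAtf4, above the siCONTROL values given above. With GFP mRNA it was at 47.4, 44.4, 28.5 and 47.4 CPM, with Atf4 mRNA at 26.2, 18.3, 13.4 and 18.1, and with both mRNAs at 22.5, 27.6, 19.99 and 20.04. Every siAtf4 library lay above every control, and every library given Atf4 mRNA lay below every GFP library. The log2 change was 1.57 ± 0.17 in siAtf4 (2.97-fold higher, adjusted p = 2.13e-07), -1.15 ± 0.20 with Atf4 mRNA (adjusted p = 0.00584) and -0.89 ± 0.20 with both (adjusted p = 0.00589).

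Ccng1 was at 181, 175, 199.9 and 213 CPM in siAtf4 and at 125, 109.6, 136 and 145 CPM in siCONTROL, without overlap (log2 change 0.57 ± 0.091, adjusted p = 7.77e-05). With both mRNAs it was at 108, 79.6, 92.2 and 95.1 CPM against 162, 123, 136 and 147 CPM with GFP mRNA (-0.61 ± 0.12, adjusted p = 0.00174). With Atf4 mRNA alone it was at 122, 90.9, 106 and 106 CPM (-0.42 ± 0.11, adjusted p = 0.0494), a call that was lost without any 1 of 6 of the 8 libraries, GFP replicates 1, 3 and 4 and Atf4 replicates 2, 3 and 4 (adjusted p 0.0724 to 0.135).

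Aen was at 121, 117, 120.1 and 119 CPM in siAtf4, a narrow band above the 88.6 to 106 CPM of siCONTROL. The log2 change was 0.29 ± 0.070 (adjusted p = 0.00895), and without siCONTROL replicate 3 it was 0.24 with an adjusted p of 0.0531. With both mRNAs Aen was at 68.4, 67.7, 73.7 and 68.4 CPM, below the 79.2 to 96.2 CPM of the GFP libraries (-0.37 ± 0.082, adjusted p = 0.00476). With Atf4 mRNA alone the log2 change of Aen was -0.25 (adjusted p = 0.0911), with overlapping groups. Pmaip1, Ccng1 and Aen were the 3 genes called in opposite directions by siAtf4 and by both mRNAs, in tables with separate controls. By siAtf4 and by Atf4 mRNA alone there were 2, Pmaip1 and Ccng1. The difference between the knockdown and mRNA effects was not tested.

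Cdkn1a was lower in all 3 treatments. In siAtf4 it was at 754, 701, 776 and 709.9 CPM, overlapping with siCONTROL, and its log2 change of -0.17 ± 0.051 (adjusted p = 0.0438) was lost without any 1 of 6 libraries, siCONTROL replicates 1 to 3 and siAtf4 replicates 1, 2 and 4 (adjusted p 0.056 to 0.211). With Atf4 mRNA it was at 683, 601, 639 and 620.5 CPM against 835, 838, 781 and 771 CPM with GFP mRNA (-0.34 ± 0.078, adjusted p = 0.0215), and with both mRNAs at 623, 503, 561 and 489 CPM (-0.57 ± 0.078, adjusted p = 0.000156). Both mRNA groups lay below every GFP library. The call with Atf4 mRNA alone was lost without GFP replicates 1 or 2 or Atf4 replicates 2, 3 or 4 (adjusted p 0.0539 to 0.068).

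Perp was the other gene lower in siAtf4, at 13.1, 8.68, 14.3 and 11.7 CPM against 19.3, 19.7, 16.1 and 22.6 CPM, without overlap (log2 change -0.70 ± 0.14, adjusted p = 0.00123). Xiap was at 25.8 to 37.0 CPM against 18.4 to 24.6 CPM, with an adjusted p of 0.0694, not past the test. In siAtf4 4 of 14 sensory neuron markers were higher (Isl1, Rbfox3, Scn9a and Syt1) and none lower, and the list summed to 16600 to 19100 CPM against 15300 to 19400 CPM. Satellite glia markers, none of which passed, summed to 631 to 771 CPM against 771 to 917 CPM. The part of these markers in the result was not tested.

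**Figure D3:**
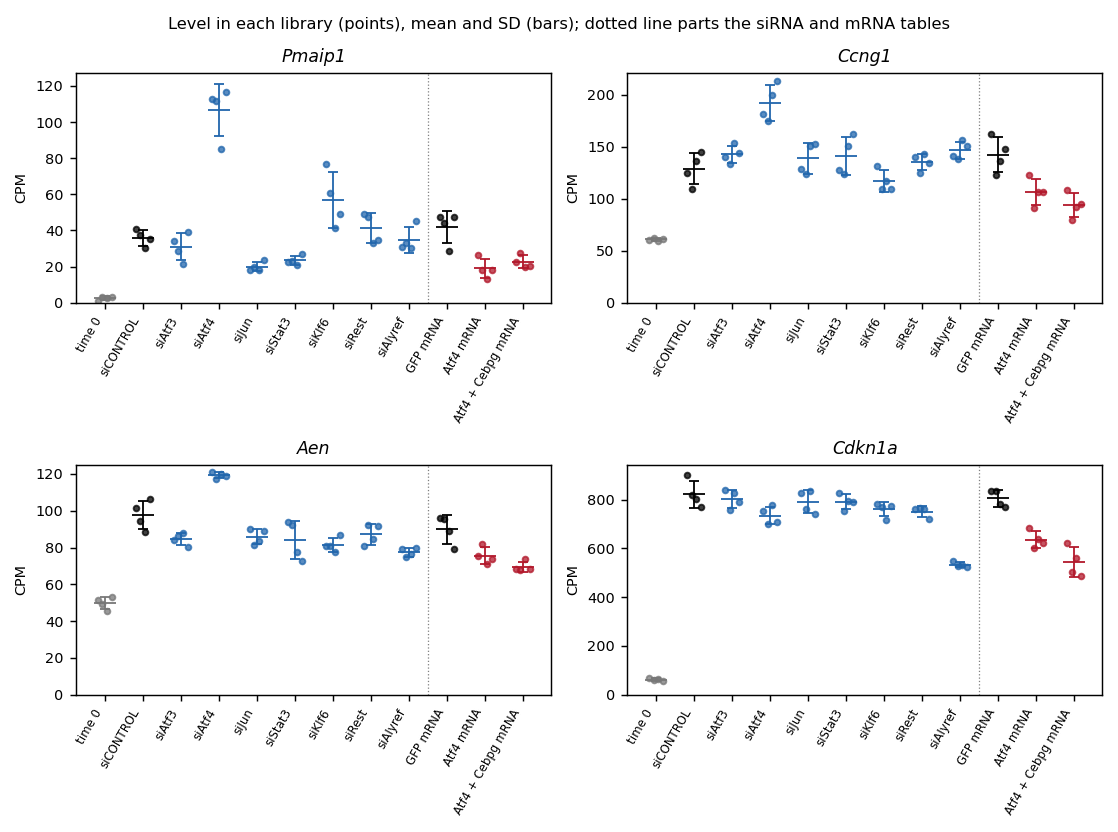
Level in CPM of Pmaip1, Ccng1, Aen and Cdkn1a in each library (points) with the mean and SD of each group (bars), for time 0 and the siRNA groups and for the 3 mRNA groups, which were scaled separately. For Pmaip1, Ccng1 and Aen the 4 siAtf4 libraries stand above every other library of the siRNA table, and for Cdkn1a the 42 h siRNA group with the lowest values is siAlyref.

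Plk2, a stress-induced polo-like kinase, was the gene that rose with the mRNAs. It was at 61.2, 62.8, 58.0 and 53.3 CPM with GFP mRNA, at 85.5, 71.4, 70.1 and 89.3 with Atf4 mRNA and at 87.2, 120.2, 114 and 109 with both, so that both Atf4 groups lay above all GFP libraries. The log2 change was 0.42 ± 0.11 with Atf4 mRNA (adjusted p = 0.0461) and 0.88 ± 0.11 with both (1.84-fold higher, adjusted p = 8.46e-05). The first of these calls was lost without any 1 of 7 of the 8 libraries, all but Atf4 replicate 3 (adjusted p 0.0571 to 0.139). In siAtf4 Plk2 was at 56.6 to 73.9 CPM, overlapping with the 58.8 to 66.1 CPM of siCONTROL. The promoter stretch of Plk2 above holds TGACGTCA, and the part of that element in the change was not tested.

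Gadd45g, a stress and cytokine response gene, fell with both mRNA treatments, from 143 ± 17.0 CPM with GFP mRNA to 97.5 ± 10.6 CPM with Atf4 mRNA (log2 change -0.56 ± 0.10) and to 86.8 ± 7.09 CPM with both (-0.73 ± 0.10). With both mRNAs Phlda3 went from 125 ± 22.0 to 86.2 ± 8.11 CPM (-0.54 ± 0.12) and Gadd45a from 458 ± 48.9 to 362 ± 14.4 CPM (-0.34 ± 0.089). Zmat3, an RNA-binding p53 target, and Bax had smaller changes of -0.30 ± 0.095 and -0.20 ± 0.065. Leaving out 1 library ended the call for Zmat3 in 7 of 8 cases, all but both-mRNA replicate 1, and for Bax in 6, all but GFP replicate 4 and both-mRNA replicate 1 (adjusted p up to 0.12 and 0.0954). With both mRNAs 3 sensory neuron markers were lower (Scn9a, Stmn2 and Tubb3) and 1 higher (Rbfox3), and the list summed to 12400 to 15600 CPM against 14500 to 17600 CPM. With Atf4 mRNA 2 were lower, at a sum of 13400 to 15400 CPM. Satellite glia markers summed to 618 to 691 CPM with GFP mRNA and to 508 to 592 CPM with Atf4 mRNA (1 of 9 tested lower, Glul). With both mRNAs they summed to 466 to 596 CPM (Glul lower, Apoe higher). Endothelial and mural markers summed to 314 to 399, 359 to 390.0 and 371 to 438 CPM, with Cdh5 higher with Atf4 mRNA and Cdh5, Kdr and Pecam1 higher with both. Their part in the result was not tested.

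Adding Cebpg mRNA to Atf4 mRNA changed 3 of 34 genes, beside 6.6% of 13857. The share of the 34, 8.82%, was near the background. Btg2 was at 21.3, 20.8, 24.1 and 18.6 CPM with Atf4 mRNA and at 27.1, 29.2, 31.7 and 35.9 CPM with both, without overlap (log2 difference 0.55 ± 0.11, adjusted p = 0.00968). With GFP mRNA Btg2 was at 25.8 to 27.5 CPM, and it passed in neither group against that control. The log2 change was -0.32 with Atf4 mRNA (adjusted p = 0.13, groups without overlap) and 0.24 with both (adjusted p = 0.139, overlapping groups). Plk2 was higher with both by 0.46 ± 0.11 (adjusted p = 0.0238), with overlapping groups, and Gadd45a differed by -0.33 ± 0.089 (adjusted p = 0.0427). The call for Plk2 was lost without 1 library in 5 of 8 cases (both-mRNA replicates 2, 3 and 4 and Atf4 replicates 2 and 3) and for Gadd45a in 7 of 8 (all but Atf4 replicate 3), with adjusted p up to 0.0779 and 0.122. Btg2 is the other gene whose promoter stretch above holds TGACGTCA, and here too the part of that element was not tested.

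**Figure D4:**
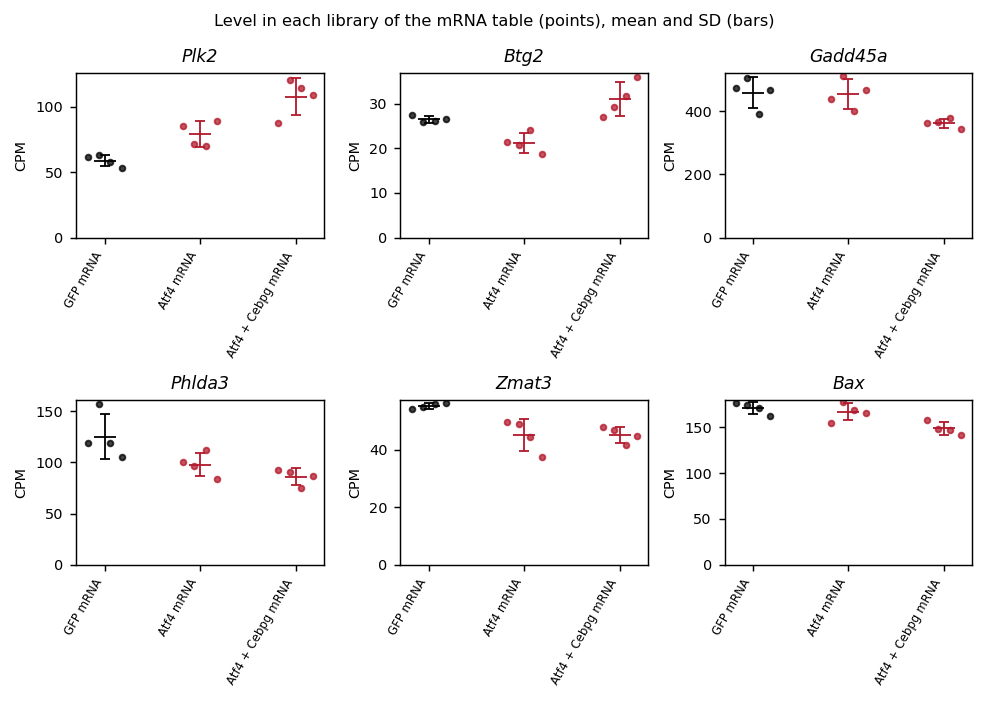
Level in CPM of Plk2, Btg2, Gadd45a, Phlda3, Zmat3 and Bax in each of the 12 libraries of the mRNA table (points), with the mean and SD of each group (bars). Plk2 is higher in both groups given Atf4 mRNA, and Btg2 lies between 18.6 and 24.1 CPM with Atf4 mRNA and between 27.1 and 35.9 CPM with both.

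Knockdown of Jun, the AP-1 factor that the JNK pathway activates in injured neurons, changed 7 of 35 genes, 3 higher and 4 lower, beside 7.78% of 14876 genes. Casp9, the initiator caspase of the apoptosome, was at 43.9, 44.5, 46.6 and 46.8 CPM against 27.9, 31.9, 31.7 and 27.0 CPM in siCONTROL. Bid, the BH3-only protein that caspase 8 cleaves, was at 50.9, 51.1, 40.6 and 40.0 CPM against 31.2, 31.9, 25.3 and 21.4 CPM. Bcl2l1, on the survival side, was at 105, 118, 124 and 99.97 CPM against 80.5, 82.7, 84.7 and 91.9 CPM. In none of the 3 did the groups overlap, so that genes promoting death and one opposing it were higher side by side.

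The log2 changes in siJun were 0.61 ± 0.083 for Casp9 (adjusted p = 9.2e-06), 0.73 ± 0.16 for Bid (adjusted p = 0.00224) and 0.40 ± 0.100 for Bcl2l1 (adjusted p = 0.00988). Without siJun replicate 3 the adjusted p for Bcl2l1 was 0.0587. Bcl2l11, the BH3-only protein Bim, which Jun is known to raise in neurons deprived of growth factor, had a log2 change of -0.10 ± 0.43, and Hrk one of -0.06 ± 0.24, neither past the test.

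Among the genes that fell in siJun, Pmaip1 was at 18.1, 19.6, 18.2 and 23.4 CPM, below all control libraries (log2 change -0.85 ± 0.19, adjusted p = 0.00337). Gadd45a was at 277 to 320.1 CPM against 348 to 431 CPM (-0.39 ± 0.087), and Gadd45g at 98.7 to 144 CPM against 144 to 187 CPM (-0.52 ± 0.14). Bak1 was at 14.7 to 16.4 CPM against 18.7 to 24.8 CPM (-0.42 ± 0.13, adjusted p = 0.0469). Leaving out 1 library ended the call for Bak1 in 6 of 8 cases (siCONTROL replicates 1 and 2 and every siJun replicate) and for Gadd45g in 5 (siCONTROL replicates 1 and 2 and siJun replicates 2, 3 and 4), with adjusted p up to 0.21 and 0.0694. In siJun 2 sensory neuron markers were higher (Prph and Scn9a) and 2 lower (Nefl and Tubb3), and the list summed to 13100 to 16600 CPM. Schwann cell markers summed to 1190 to 1410 CPM against 1430 to 1630 CPM (Pmp22 lower) and satellite glia markers to 520.0 to 770.0 CPM against 771 to 917 CPM (Glul lower). Their part in the result was not tested.

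Knockdown of Atf3, an ATF/CREB factor induced by axon injury, changed 4 of 35 genes, 2 higher and 2 lower, beside 11.5% of 14876. The share of the 35, 11.4%, was near the background. Hrk was at 4.42, 4.88, 5.41 and 8.63 CPM in siAtf3 against 2.38, 2.47, 2.04 and 2.76 CPM in siCONTROL. Btg2 was at 33.5, 34.3, 37.1 and 36.9 CPM against 22.0, 28.4, 29.0 and 23.7 CPM. Both lay wholly above the control. The log2 changes were 1.27 ± 0.23 for Hrk (adjusted p = 0.000252) and 0.45 ± 0.12 for Btg2 (adjusted p = 0.0106), and without siCONTROL replicate 1 that of Btg2 was 0.38 with an adjusted p of 0.0516. Gadd45a (-0.40 ± 0.087) and Gadd45g (-0.73 ± 0.14) fell. Of the 14 sensory neuron markers 9 were lower in siAtf3, and the list summed to 12300 to 15600 CPM against 15300 to 19400 CPM. Schwann cell markers summed to 1090 to 1230 CPM against 1430 to 1630 CPM (1 of 11 tested lower, Pmp22) and satellite glia markers to 566 to 725 CPM against 771 to 917 CPM (1 of 10 lower, Glul). Their part in the result was not tested.

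Hrk also rose with knockdown of Stat3, the factor that gp130 cytokines activate. It was at 5.72, 4.41, 5.61 and 6.66 CPM (log2 change 1.22 ± 0.23, adjusted p = 0.00181), while in the 42 h siRNA groups other than siAtf3 and siStat3 its libraries lay between 1.59 and 4.06 CPM. In siStat3 2 of 35 genes passed, beside 3.03% of 14876. The other was Gadd45g, at 104, 75.5, 88.0 and 102 CPM against 187, 180.3, 144 and 146 CPM (-0.83 ± 0.14, adjusted p = 0.00049). Pmaip1 was at 21.1 to 27.1 CPM against 30.4 to 40.7 CPM, with an adjusted p of 0.0785 in edgeR and of 0.0469 in DESeq2. With siStat3 and siCONTROL fitted alone, edgeR gave 0.0467. The sensory neuron markers Elavl4 and Rbfox3 were lower in siStat3.

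**Figure D5:**
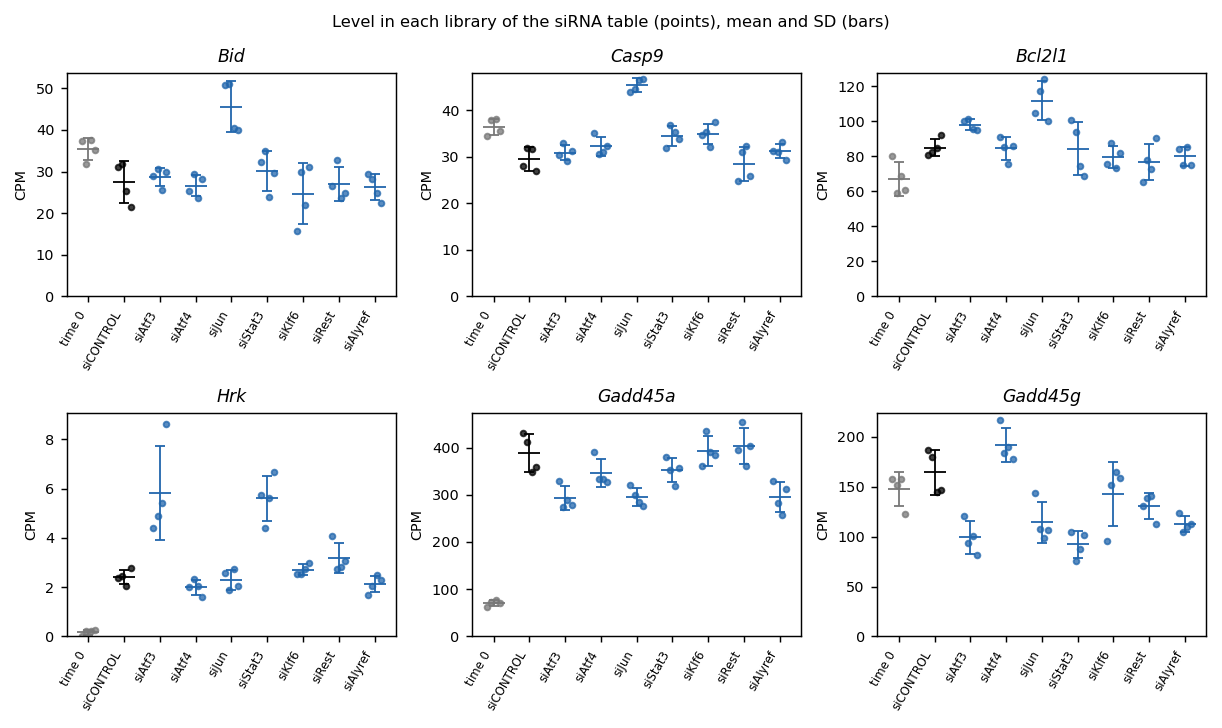
Level in CPM of Bid, Casp9, Bcl2l1, Hrk, Gadd45a and Gadd45g in each library of the siRNA table (points), with the mean and SD of each group (bars). The siJun libraries are highest for Bid and Casp9, the siAtf3 and siStat3 libraries are highest for Hrk, and Gadd45a lies between 62.3 and 77.2 CPM at time 0.

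Knockdown of Alyref, an mRNA export adaptor, moved 4 of 35 genes, all lower, beside 4.26% of 14876. Cdkn1a was at 547, 528, 534 and 523 CPM, a narrow range below the 769 to 899.7 CPM of siCONTROL. Its log2 change was -0.63 ± 0.051 (1.54-fold lower, adjusted p = 1.09e-09). Aen was at 74.7 to 79.8 CPM (-0.33 ± 0.072, adjusted p = 0.00446), Gadd45a at 257 to 329.9 CPM (-0.39 ± 0.088, adjusted p = 0.00624) and Gadd45g at 105 to 124 CPM (-0.54 ± 0.14, adjusted p = 0.0203). With siAlyref and siCONTROL fitted alone the adjusted p for Gadd45a was 0.0547, and the call for Gadd45g was lost without siCONTROL replicates 1 or 2 or siAlyref replicates 2, 3 or 4 (adjusted p 0.0549 to 0.0768). Mdm4 was at 17.4 ± 1.52 CPM against 27.0 ± 3.93 CPM, without overlap and with an adjusted p of 0.0572 in edgeR and of 0.0327 in DESeq2. It was 0.0299 with these 2 groups fitted alone and 0.0471 without siCONTROL replicate 1. Avil and Tubb3 were lower among the sensory neuron markers, and their part was not tested.

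Klf6 and Rest knockdown gave no call among the 35 genes in the edgeR test. Of all 14876 genes 1.85% passed in siKlf6 and 0.202% in siRest. In each, 5 of the 35 had an unadjusted p under 0.05. Over all 14876 genes, 1783 had an unadjusted p under 0.05 in siKlf6 and 908 in siRest. In siKlf6 Pmaip1 was at 76.8, 60.9, 41.5 and 48.9 CPM, above all siCONTROL libraries, with a log2 change of 0.63 ± 0.18 and an adjusted p of 0.0639. Aen was at 77.4 to 86.6 CPM, below all siCONTROL libraries, with an adjusted p of 0.0613. DESeq2 called these 2 genes in siKlf6 and 0 in siRest.

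Gadd45g was the gene with the most calls, lower in 6 of 9 treatments. Gadd45a was lower in 4 of the 9 and Gadd45b passed in none in the edgeR test without a replicate term, with log2 changes of Gadd45b between -0.38 (siAtf3) and 0.27 (both mRNAs). Between time 0 and siCONTROL Gadd45g was at 148 ± 16.9 and 164 ± 22.1 CPM, not past the test, while Gadd45a rose.

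Direct contrasts tested the differences between knockdowns. Between siAtf4 and siAtf3 9 of 35 genes differed, beside 22.9% of 14876. The share of the 35, 25.7%, was near the background. Pmaip1 was higher in siAtf4 by 1.78 ± 0.17 on the log2 scale, Gadd45g by 0.95 ± 0.14, Aen by 0.49 ± 0.070, Zmat3 by 0.46 ± 0.093, Ccng1 by 0.42 ± 0.090, Phlda3 by 0.29 ± 0.089 and Gadd45a by 0.24 ± 0.087. Hrk (-1.55 ± 0.23) and Perp (-0.91 ± 0.14) were lower in siAtf4. Leaving out 1 library ended the call for Gadd45a in 5 of 8 cases (siAtf4 replicates 1 and 3, siAtf3 replicates 2, 3 and 4) and for Phlda3 in 3 (siAtf4 replicate 4, siAtf3 replicates 1 and 2), with adjusted p up to 0.174 and 0.0774. In the same contrast 9 of 14 sensory neuron markers were higher in siAtf4 and none lower, and their part was not tested.

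Between siAtf4 and siJun 12 of 35 differed, beside 18.6% of all genes. Pmaip1 was at 107 ± 14.3 CPM in siAtf4 and at 19.8 ± 2.46 CPM in siJun, a log2 difference of 2.42 ± 0.18 (adjusted p = 3.07e-11). Gadd45g, Zmat3, Ccng1, Aen, Phlda3, Sesn1 and Bak1 were also higher in siAtf4, by 0.46 to 0.74 for all but Phlda3 (0.36) and Bak1 (0.39). Bid (-0.78 ± 0.15), Casp9 (-0.50 ± 0.082), Perp (-0.50 ± 0.14) and Bcl2l1 (-0.41 ± 0.099) were lower. Leaving out 1 library ended the call for Sesn1 in 7 of 8 cases (all but siJun replicate 3), for Bak1 in 6 (all but siAtf4 replicates 3 and 4) and for Perp in 1 (siAtf4 replicate 2), with adjusted p up to 0.2, 0.228 and 0.0741.

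Between siAtf3 and siJun 6 of 35 differed, beside 9.87% of all genes. Hrk (1.33 ± 0.23), Pmaip1 (0.64 ± 0.19), Btg2 (0.49 ± 0.12) and Perp (0.41 ± 0.13) were higher in siAtf3, and Bid (-0.67 ± 0.15) and Casp9 (-0.56 ± 0.082) lower. The call for Perp was lost without 1 library in 7 of 8 cases (all but siAtf3 replicate 3) and for Pmaip1 in 5 (siAtf3 replicates 1 and 4, siJun replicates 1, 2 and 3), with adjusted p up to 0.214 and 0.132. Hrk, Btg2, Bid and Casp9 thus differed between knockdown of 2 bZIP factors by a test of the difference itself. In the same contrast 7 sensory neuron markers were lower in siAtf3 and none higher, and their part was not tested.

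A further 75 genes in 3 lists show the pathway around these genes. In culture 12 of 30 other p53 targets rose and 5 fell, 8 of 17 p53 regulators tested rose and 2 fell, and 8 of 23 other BCL2 and caspase genes rose and 4 fell, with median log2 changes of 0.355, 0.395 and 0.186 beside 0.01 over all genes. These shares, 56.7%, 58.8% and 52.2%, were near the 57.9% of all genes tested. Sesn2, a sestrin that ATF4 is also known to induce, went from 3.39 to 35.8 CPM (log2 change 3.38 ± 0.15), and Psrc1 and Gtse1, which act on microtubules in dividing cells, rose by 3.86 ± 0.34 and 3.40 ± 0.30. Bcl2l14 fell from 8.38 to 0.324 CPM. Casp8 and Fadd, which act below death receptors, rose by 2.21 ± 0.44 and 1.74 ± 0.37.

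With the Atf4 treatments Sesn2 moved opposite to Pmaip1. It fell in siAtf4 from 35.8 to 17.9 CPM (log2 change -1.004 ± 0.086, adjusted p = 1.38e-09) and rose with Atf4 mRNA from 43.8 to 105 CPM (1.26 ± 0.10) and with both mRNAs to 125 CPM (1.51 ± 0.11). In siAtf4 5 of 30 other p53 targets fell and none rose, 16.7% beside 6.91% of all genes, with a list median of -0.07 beside -0.0013. Among them were Gdf15, a stress cytokine (-0.86 ± 0.19), and Tigar, a regulator of sugar metabolism (-0.53 ± 0.098). In siAtf3 4 of the 30 rose and none fell, 13.3% beside 11.5% of all genes. They included Gdf15 (0.80 ± 0.18), Sesn2 (0.60 ± 0.081) and Ddit4 (0.48 ± 0.12). In siJun 3 of the 30 rose and 2 fell, 16.7% beside 7.78% of all genes, with Gdf15 at 0.75 ± 0.18.

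Of 22 other BCL2 and caspase genes tested in siAtf3, 3 rose and 1 fell, 18.2% beside 11.5% of all genes. The gene that fell was Bnip3l, a mitophagy receptor, which went from 202 to 102 CPM (-0.98 ± 0.098). In siAtf4 0 of 22 rose and 2 fell (9.09% beside 6.91%), Aifm1 (-0.46 ± 0.13) and Diablo, which relieves caspases from Xiap (-0.35 ± 0.097). Diablo was also lower in siAlyref (-0.45 ± 0.097) and with both mRNAs (-0.36 ± 0.078).

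Of 19 p53 regulators tested with both mRNAs, 4 rose and 1 fell, a share of 26.3% that was near the 24.6% of all genes. Atm, the kinase that senses DNA breaks, went from 8.05 to 27.2 CPM (1.76 ± 0.17, adjusted p = 1.02e-05) and was higher with both mRNAs than with Atf4 mRNA alone by 1.19 ± 0.16. Among other p53 targets Steap3 and Triap1 were lower with Atf4 mRNA (-0.58 ± 0.11 and -0.42 ± 0.093) and with both (-0.83 ± 0.11 and -0.57 ± 0.095).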

How the data were processed

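RNA of 48 libraries was sequenced after Illumina Stranded mRNA Prep, per the labels' protocols. The authors deposited expected counts per gene, made with kallisto on GRCm39 per the submitters' processing notes; its version, the annotation release and any scaling were not given in the sources used here. In each library low values behaved as multiples of a unit set by transcript length, so they are not plain read counts, and depth in reads is unknown. The siRNA and mRNA tables were scaled separately and not tested against each other.

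The expected counts were rounded, filtered with filterByExpr, scaled by TMM and tested with the edgeR 4.0.16 quasi-likelihood test in R 4.3.3, with Benjamini-Hochberg adjustment over all genes tested and a threshold of 0.05. The fits held time 0 and siCONTROL, the 8 siRNA groups at 42 h, or the 3 mRNA groups. SE is the absolute log2 fold change divided by the square root of F. Alternatives were DESeq2 1.42.0, RLE scaling, no filter, limma 3.58.1 with trend (prior count 2), a replicate block, other sets of groups in the fit, and leaving out each library. The script was tested on simulated data.

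All 35 genes could be named. Of the further lists at most 3 genes per comparison were named, those with the largest change among genes past the threshold whose groups did not overlap. Marker genes were named where few passed, after their values were seen. The members and lists were chosen with earlier results of these data known.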

Additional observations from a re-analysis of the deposited data

Results flagged for a closer look

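Of 420 pairs of a gene and a group, 18 held 1 library far from the other 3, with a gap past Dixon's critical value for 4 libraries. Chance flags about 1 in 20 groups, and the share here was 4.29%.

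Among p53, its inhibitors and its targets, Mdm4 was at 37.0 CPM in siJun replicate 3 (others 22.4 to 24.9), Cdkn1a at 719.9 CPM in siRest replicate 4 (others 760.3 to 764) and Sesn1 at 13.1 CPM in siAtf4 replicate 4 (others 10.2 to 10.4). Gadd45a was at 391 CPM in siAtf4 replicate 1 (others 328 to 334), Btg2 at 17.0 CPM in siKlf6 replicate 1, the shallowest library (others 25.4 to 26.2), and Aen at 73.7 CPM in replicate 3 of both mRNAs (others 67.7 to 68.4). Fas was at 3.46 CPM in siAtf3 replicate 2 (others 1.004 to 1.305) and Tnfrsf10b at 11.9 CPM in siStat3 replicate 3 (others 6.53 to 7.33).

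In the BCL2 family, Bax was at 81.6 CPM in time 0 replicate 2 (others 73.5 to 73.8), Bak1 at 19.1 CPM in GFP mRNA replicate 2 (others 24.5 to 25.0) and at 14.4 CPM in siAlyref replicate 3 (others 19.4 to 20.2), and Bbc3 at 17.7 CPM in siAlyref replicate 2 (others 21.7 to 22.1). Pmaip1 was low in replicate 3 of 2 groups, at 28.5 CPM with GFP mRNA (others 44.4 to 47.4) and at 85.4 CPM in siAtf4 (others 111.9 to 116.5), and its calls with Atf4 mRNA and in siAtf4 held without either library. Bcl2l11 was at 1.92 CPM in time 0 replicate 4 (others 3.07 to 3.28) and at 7.65 CPM in siAtf3 replicate 3 (others 4.88 to 5.24). Hrk was at 0.0 CPM in time 0 replicate 1 (others 0.205 to 0.240), and Bcl2 at 7.91 CPM in Atf4 mRNA replicate 4 (others 5.01 to 5.48).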

How the results depend on the processing

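Of 94 calls of single genes over 14 comparisons, 67 held under every alternative run, 27 were lost under 1 or more and 0 reversed. DESeq2 kept 88 of the 94, RLE scaling 92, limma 90 and no filter on low counts 80, and 630 of 752 repeats held when 1 library was left out. In siKlf6 the count of 0 genes became 2 with DESeq2 and 0 to 1 when 1 library was left out (1 without siCONTROL replicate 3, siKlf6 replicate 2 or siKlf6 replicate 4). With Atf4 mRNA the count of 5 became 3 with no filter and 2 to 4 when 1 library was left out, and any library but Atf4 replicate 1 moved it by over 1.5 times. Leaving out 1 library gave 3 to 5 genes in siAtf4 (3 without siCONTROL replicate 3), 4 to 7 in siJun (4 without siJun replicate 3), and 1 to 3 between both mRNAs and Atf4 mRNA (1 without both-mRNA replicates 2, 3 or 4 or Atf4 replicate 2). The cause was not tested. Genes under a few CPM, such as Hrk, Fas and Eda2r, are limited by depth.

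Calls were also gained. In culture Hrk was called with no filter or without any 1 time 0 library or siCONTROL replicate 3, where it was tested, and Zmat3, Bad, Plk2 and Hrk with all groups of the siRNA table fitted together (log2 change 0.24, 0.33, 0.24 and 3.67). Zmat3 was also called with RLE scaling, limma, no filter and without time 0 replicate 4 or siCONTROL replicates 1 or 2, and Bad with DESeq2, no filter and without time 0 or siCONTROL replicate 4. Among the comparisons with a control at 42 h, Aen was called in siAtf3 with DESeq2, RLE scaling or without siCONTROL replicate 3, in siStat3 without siStat3 replicate 1, and Bad with both mRNAs without GFP replicate 3.

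The labels do not say what a replicate number stands for. Of 148 same-numbered pairs of libraries 143 deviated together with a correlation above 0 and 27 with one over 0.1 (siCONTROL and siAtf4 0.0532 to 0.0818, siCONTROL and siJun 0.0749 to 0.1444). No comparison met the criterion of over 0.1 in every pair, so the numbers were not used to pair libraries, but a shared source is not settled: Gadd45b was higher in replicates 1 and 2 than in 3 and 4 in 11 of 11 groups numbered 1 to 4. The replicate block kept 92 of the 94 calls (not Bak1 in siJun and Plk2 with Atf4 mRNA), gave 1 gene in siKlf6, and moved the count from 4 to 6 in siAtf3 and from 9 to 13 between siAtf4 and siAtf3. Against a control, the calls gained under the block were Gadd45b in siAtf3 (log2 change -0.40, adjusted p = 0.00453) and with both mRNAs (0.28, adjusted p = 0.0276), Xiap in siAtf4 (0.50, adjusted p = 0.0489), Pmaip1 in siStat3 (-0.61, adjusted p = 0.0261), Mdm4 in siAlyref (-0.63, adjusted p = 0.0436) and Aen in siAtf3 (adjusted p = 0.0467) and siKlf6 (adjusted p = 0.0304).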
